A study of Mus musculus with 15 samples.

Results

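TAE226, a kinase inhibitor directed at focal adhesion kinase (FAK), was compared with vehicle in mouse mammary tumour cells grown as mammospheres. The comparison rests on 6 of the 15 arrays in the series, 3 from cultures labelled as treated with TAE226 and 3 from cultures labelled as control, and was made over 11412 of the 18193 genes on the array. All cultures, controls included, came from primary mammary tumours of MMTV-PyMT mice on the FVB/N background, in which a promoter active in mammary epithelium drives the viral oncogene that starts the tumours. Cells were kept in suspension in serum-free medium with EGF, FGF and B27 for 10 days, and then for 2 more days with TAE226 or with vehicle, labelled DMSO. The other arrays came from sister groups of 3 that received DAPT (an inhibitor of the protease that releases active Notch), U0126 (which acts on the kinase MEK) or PP2 (which acts on Src family kinases). Mouse age and inhibitor dose were not stated in the labels used here. The labels call the replicates biological but do not tell whether they come from different animals or dishes, so each p-value reflects only the scatter among these arrays, which may be technical.

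FAK is a cytoplasmic tyrosine kinase that is recruited to integrins where cells attach to matrix, and that works with Src to phosphorylate scaffolds such as p130Cas and paxillin. From there signals run to actin, to PI3 kinase and AKT, and to the ERK pathway. In PyMT tumours FAK is known for its part in tumour progression and in the maintenance of cells that form mammospheres. TAE226 is known to block the insulin-like growth factor 1 receptor as well as FAK, so a transcript that moved under TAE226 cannot be assigned to one kinase from these arrays. The study's title concerns the phosphatase Shp2 and senescence, and the comparison asks which genes change when the kinase is inhibited. The transcript of FAK itself, Ptk2, was not analysed here, and as TAE226 acts on the protein its level would not check the treatment.

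Signals are given as log2 of the MAS5 value for 1 probe set per gene, and each fold change is the TAE226 mean minus the vehicle mean on that scale. Arrays were closer within a group than between groups: for a pair of arrays, the median gene differed by 0.0956 to 0.149 (log2) within vehicle, by 0.101 to 0.130 within TAE226 and by 0.202 to 0.241 across them. Median signals per array were higher in TAE226 (84.4 to 90.6) than in vehicle (65.7 to 78.4), and the 3′ to 5′ ratio of actin, which rises as RNA is shortened, was 1.33 ± 0.07 against 1.42 ± 0.06 (SD, n = 3 each). The part of these differences in the results was not tested. All 11 epithelial markers, such as Epcam, Krt8 and Krt18, lay above the array median on all 6 arrays, with a summed signal of 89420 to 100900 in TAE226 and 85730 to 88120 in vehicle. Markers of other cells were mostly dim, meaning below the median of their array on all 6 arrays: 9 of 13 for macrophages, 10 of 10 for lymphocytes, 5 of 6 for neutrophils, 8 of 9 for endothelium, 7 of 9 for fibroblasts and 4 of 5 for adipocytes.

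TAE226 changed 3548 genes (31.1% of those tested; limma, adjusted p under 0.05), of which 1732 (15.2%) were higher and 1816 (15.9%) were lower. At least a 2-fold change was seen in 173 higher genes (1.52%) and 149 lower genes (1.31%). The median change of all genes tested was 0.02, and the arrays of the groups did not overlap in 43.3% of genes. These shares are the background for every count below. The split depended on how arrays were scaled. When each array was centred on the median of all its probe sets, values moved down by 0.25 and the split became 428 higher and 4241 lower, while 309 of the 322 changes of 2-fold or more were still called in the same direction. Small rises are therefore relative to the scaling. Of the genes named below as higher, Ilk, Tln1, Cdkn1a, Phlda3, Eda2r, Ei24, Rora, Notch1, Dll1, Id1, Rsph1, Ccdc39, Hsd17b7 and Ifi27 were not called under that centring, and other such genes are marked where they appear.

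**Figure D1:**
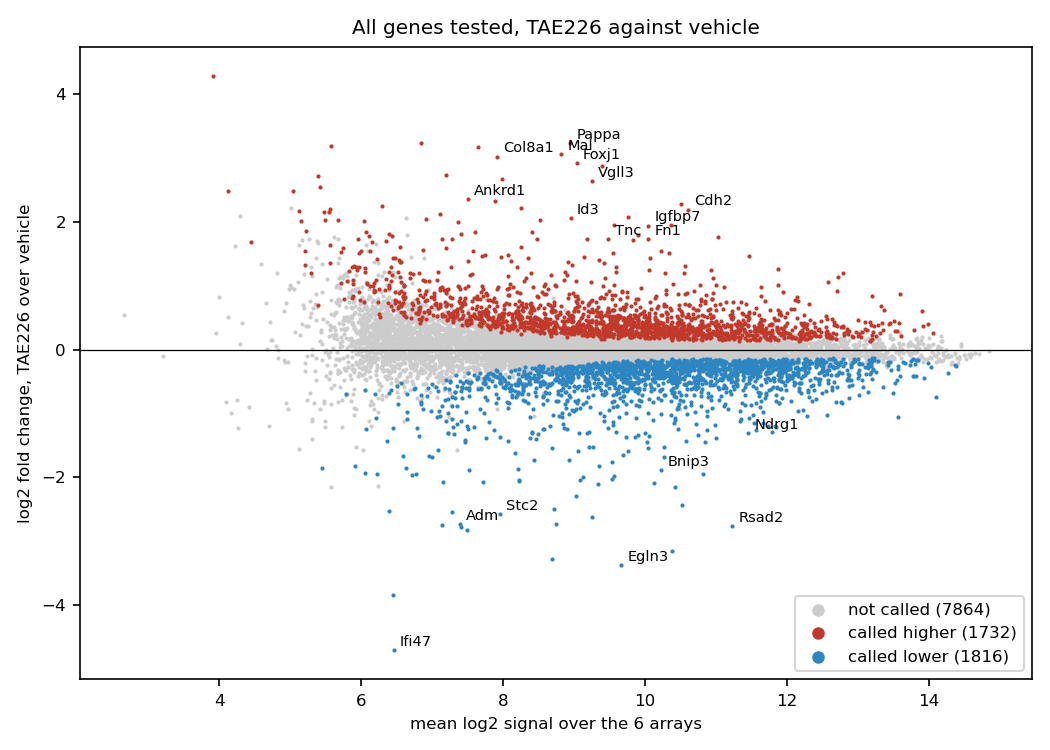
Log2 fold change of TAE226 over vehicle (vertical axis) against the mean log2 signal over the 6 arrays (horizontal axis) for the 11412 genes tested. Red points are the 1732 genes called higher and blue points the 1816 called lower; the rises of Pappa and Foxj1 and the falls of Egln3 and Rsad2 lie among the bright genes farthest from 0.

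The largest rises were spread over several kinds of gene. Pappa, a secreted protease that frees insulin-like growth factors from their binding proteins, read 7.59, 7.32 and 7.07 in vehicle and 10.58, 10.62 and 10.48 in TAE226. Every treated array lay far above every control array, a change of 3.23 (SE 0.16, adjusted p = 2.94e-10). Mal, a membrane proteolipid of apical transport, rose by 3.07, the collagen Col8a1 by 3.02, the cilia factor Foxj1 by 2.93, the protease inhibitor Ctla2a by 2.87 and the secreted protein Sbspon by 2.73. Among transcription regulators, Sox11 rose by 2.67 and Vgll3, a cofactor of TEAD proteins, by 2.65. The cornified envelope gene Lce1h rose by 3.17, but its vehicle arrays were widely spread (SD 1.28) and only 2 of them lay above the array median. Genes that were dim in vehicle have only a lower bound. Dgkk, a diacylglycerol kinase, rose at least 4.83-fold (adjusted p = 2.17e-06), the matrix receptor Antxr1 at least 1.47-fold (4.91e-05), the water channel Aqp12 at least 1.42-fold (0.00717) and the skin protease Klk7 at least 1.98-fold (0.016). The call of Klk7 was lost without 1 array in some cases, with an adjusted p of 0.0798 without vehicle replicate 1 and 0.0531 without TAE226 replicate 2. Antxr1 was not called when its probe sets were averaged (adjusted p = 0.113).

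Most of the largest falls came from oxygen sensing and from interferon defence. Egln3, a prolyl hydroxylase that marks HIF for destruction and is itself a HIF target, read 11.40, 11.30 and 11.37 in vehicle and 8.00, 7.78 and 8.14 in TAE226. No array of one group came near the other, a change of −3.38 (SE 0.12, adjusted p = 1.23e-11). Iigp1, an interferon-induced GTPase that attacks intracellular parasites, fell by 3.15, and Ifit1bl1, Rsad2, Ifit3 and Cmpk2 fell by 3.27, 2.77, 2.74 and 2.62. Several others were dim in TAE226. The interferon-induced GTPase gene Ifi47 fell at least 5.17-fold (adjusted p = 0.00431), Fndc1, which encodes a fibronectin domain protein, at least 5.52-fold (4.54e-07), the vasodilator peptide gene Adm at least 4.97-fold (3.58e-06), Gad1, which makes GABA, at least 3.82-fold (0.000686) and Smtnl2 at least 2.33-fold (2.23e-05), with another bright probe set of Smtnl2 at −0.93.

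**Figure D2:**
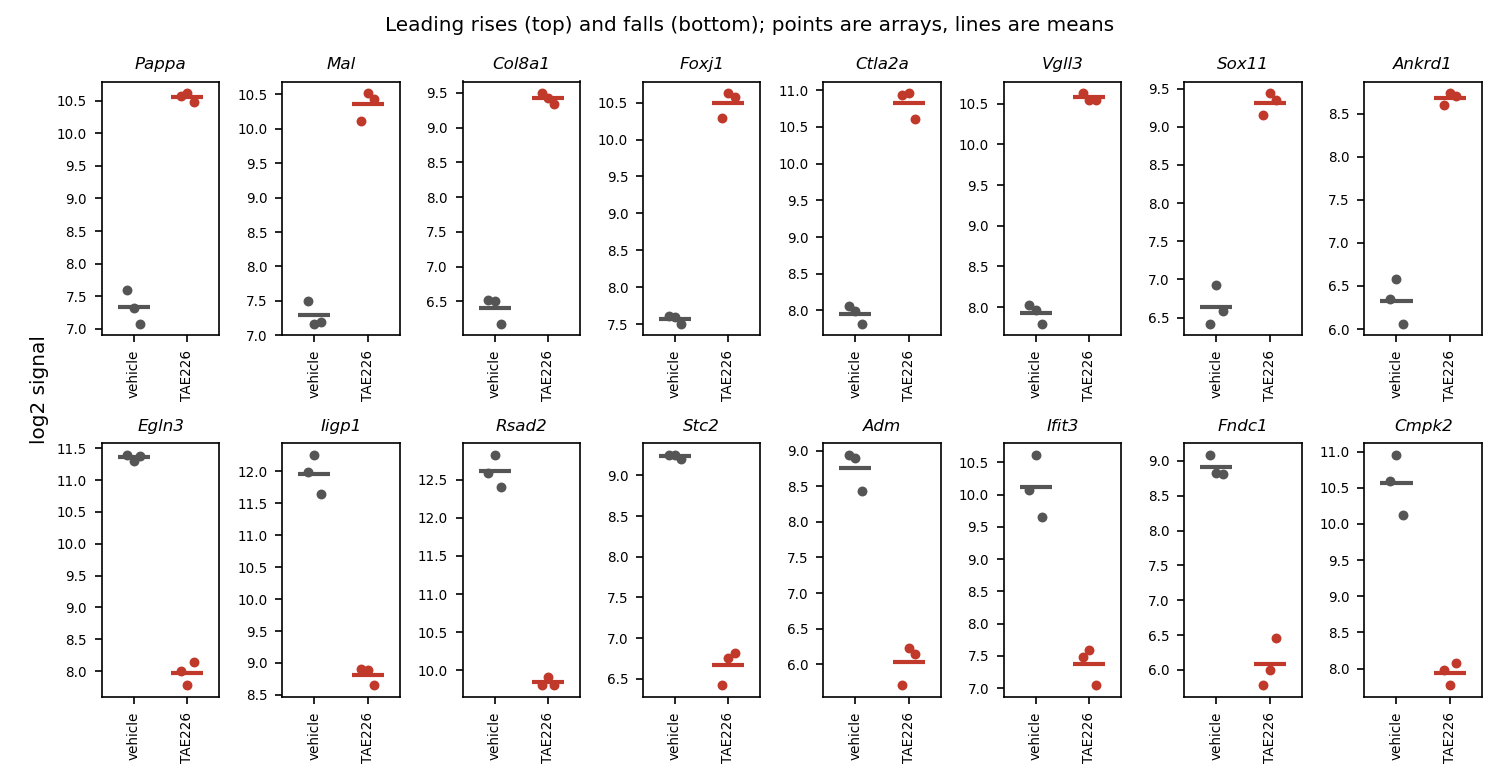
Log2 signal on each of the 3 vehicle and 3 TAE226 arrays for 8 of the largest rises (top) and 8 of the largest falls (bottom); points are arrays, lines are group means and each panel has its own axis. The groups do not overlap in any panel, which was a condition for the choice of these genes. Means went from 7.33 to 10.56 for Pappa and from 11.36 to 7.97 for Egln3.

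Genes driven by HIF, the transcription factor that is stabilised when oxygen is low, fell as a group. Of 27 tested HIF targets 18 were lower and 2 were higher, and their median was −0.66 against 0.02 for all genes. Beside Egln3 and Adm, the secreted glycoprotein Stc2 read 9.26, 9.26 and 9.20 in vehicle and 6.42, 6.76 and 6.82 in TAE226 (change −2.57, SE 0.15, adjusted p = 2.85e-09). No TAE226 array of Stc2 came near the controls, and its other bright probe sets changed by −1.48 and −0.42. Ankrd37 fell by 2.07, and Vegfa, the main growth factor of blood vessels, read 10.70, 10.66 and 10.32 in vehicle against 8.86, 9.08 and 8.96 in TAE226 (change −1.59, SE 0.14; −0.89 for its other bright probe set). The mitophagy receptor Bnip3 read 11.27, 11.19 and 11.07 in vehicle and 9.25, 9.31 and 9.30 in TAE226, a 3.69-fold fall (SE 0.06 on the log2 scale, adjusted p = 2.13e-12) with little spread in either group. The exceptions were Lox, a collagen crosslinking enzyme, at 0.95 and the nuclear receptor Rora at 0.36, and Rora lost its call without vehicle replicate 2 (adjusted p = 0.0601) or TAE226 replicate 2 (0.0581). Among the 7 members that were not called, Hilpda stood at −0.09, Plod2 at −0.06 and Mxi1 at −0.04; these names, like that of Rora, were picked after the values were seen.

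Glycolysis, the breakdown of glucose to pyruvate and lactate, moved with them. Of 15 tested genes 13 were lower and none was higher, with a median of −0.57. The hexokinase Hk2, which traps glucose in the cell, read 10.23, 10.10 and 9.98 in vehicle and 8.87 on each of the 3 TAE226 arrays (change −1.23, SE 0.08, adjusted p = 6.81e-09), and the phosphofructokinase Pfkp changed by −1.04 (−0.61 and −0.15 for its other bright probe sets). The glucose carrier Slc2a1 changed by −0.64, the triose enzyme Tpi1 by −0.81 and Pdk1, which keeps pyruvate out of the mitochondrion, by −1.03. The 2 members that were not called were Hk1 (−0.05) and Pfkm (0.09). By contrast, of 38 genes of oxidative phosphorylation 1 was higher and 3 were lower, with a median of −0.03, shares below the background in both directions. With centring on all probe sets none of these was higher and 19 were lower.

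The letters ACGTG, the core of the hypoxia response element, were looked for on both strands in the 300 bases from 250 before to 50 after each start site (RefSeq, GRCm38.p6). They were present in 10 of the 16 lower HIF targets and 7 of the 13 lower glycolysis genes that had a promoter in the table, but also in the 1 higher HIF target, in 2 of the 5 HIF targets and 1 of the 2 glycolysis genes that were not called, and in 26.3% of the promoters of all genes tested and 19.7% of all promoters. A match is a description of these letters and not evidence of binding. The stretches of 4 of these promoters upstream of the start site are shown, chosen after the values were seen because HIF control of these genes is textbook knowledge; capitals mark each match on either strand, with overlapping matches joined, and each runs 5′ to 3′ along the gene's own strand. They are Bnip3 at chr7:138909584-138909639 (minus strand), Ldha at chr7:46845634-46845799 (plus), Egln3 at chr12:54204074-54204124 (minus) and Pgk1 at chrX:106186925-106186998 (plus).
Bnip3: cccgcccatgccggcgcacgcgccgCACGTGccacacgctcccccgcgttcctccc
Ldha: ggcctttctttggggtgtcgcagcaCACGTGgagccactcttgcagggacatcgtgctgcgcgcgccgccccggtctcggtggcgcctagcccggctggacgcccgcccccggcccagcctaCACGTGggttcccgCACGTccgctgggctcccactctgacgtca
Egln3: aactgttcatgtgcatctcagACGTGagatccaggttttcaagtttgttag
Pgk1: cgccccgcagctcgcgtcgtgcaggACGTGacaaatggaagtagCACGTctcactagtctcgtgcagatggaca
Bnip3 and Ldha hold the palindrome in which the letters are read on both strands. The transcripts of the 4 genes fell to unequal extents, with changes of −1.88 for Bnip3, −0.41 for Ldha, −3.38 for Egln3 and −0.68 for Pgk1.

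Genes that make and import amino acids were lower. ATF4 is the transcription factor that switches on amino acid synthesis and transport when amino acids are short or the endoplasmic reticulum is under stress. Of 26 of its targets 20 were lower and 1 was higher (median −0.47). The list was also lower than the same vehicle under the other inhibitors, with medians of −0.57 under DAPT, −0.46 under U0126 and −0.76 under PP2. Trib3, a pseudokinase that restrains AKT, read 10.51, 10.60 and 10.43 in vehicle and 8.90, 8.81 and 8.87 in TAE226 (change −1.66, SE 0.08, adjusted p = 1.35e-10). The stress factor Ddit3 (CHOP) changed by −1.44 (−0.26 for its other bright probe set), the glutathione-degrading enzyme Chac1 by −1.29 and Slc7a5, a subunit of the large neutral amino acid carrier, by −1.15. The member that rose was Sesn2, a leucine sensor that restrains mTORC1 and that is also a p53 target: it read 9.44, 9.46 and 9.62 in vehicle and 10.31, 10.33 and 10.25 in TAE226 (change 0.79, SE 0.09, adjusted p = 3.66e-06). The arrays of Sesn2 did not overlap between groups, but its other bright probe set stood at 0.09.

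Serine and one-carbon metabolism, which feeds nucleotide synthesis, showed the same direction, with 10 of 14 genes lower, none higher and a median of −0.65. Medians of this list were −0.45 under DAPT, −0.31 under U0126 and −1.24 under PP2. Aldh1l2, a mitochondrial folate enzyme, read 10.12, 10.05 and 10.16 in vehicle and 8.26, 8.14 and 7.81 in TAE226 (change −2.04, SE 0.13, adjusted p = 6.81e-09). Cth, which makes cysteine, changed by −1.54, the alanine transaminase Gpt2 by −1.16 and Psat1, of the serine route, by −0.82. Of 20 chaperones and folding enzymes of the endoplasmic reticulum 15 were lower and none was higher (median −0.39), such as the disulfide isomerase Pdia6 (−0.90) and Herpud1 (−0.80), a part of the machinery that removes misfolded proteins. Heat shock proteins went another way, with 8 of 15 higher and 2 lower: Hspb1 rose by 0.68, Hspb8 by 0.68 and the lens crystallin Cryab by 0.62. The count of 8 became 4 when arrays were centred on all probe sets, and Hspb8 and Cryab were not called when probe sets were averaged (adjusted p = 0.263 and 0.0540).

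The amino acid response element, searched as TGATGNAA on both strands, was found in the promoters of 6 of the 14 lower ATF4 targets with a promoter and 2 of the 5 that were not called, and in 1 of the 8 lower serine and one-carbon genes, against 2.13% of the promoters of genes tested and 4.06% of all promoters. Chac1 (chr2:119351024-119351081, plus strand) and Asns (chr6:7693210-7693257, minus strand), the asparagine synthetase in which the element is a textbook example, are shown with the match in capitals.
Chac1: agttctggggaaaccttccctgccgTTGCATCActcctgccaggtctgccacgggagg
Asns: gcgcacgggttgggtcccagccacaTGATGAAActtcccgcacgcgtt
Asns changed by −0.65.

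Lipid synthesis was lower along both branches. Of 20 genes of cholesterol synthesis 17 were lower and 1 was higher (median −0.49). Tm7sf2, a sterol reductase, read 9.43, 9.30 and 9.55 in vehicle and 8.19, 8.21 and 8.40 in TAE226 (change −1.16, SE 0.11, adjusted p = 9.35e-07), Pmvk of the mevalonate pathway changed by −0.86, the demethylase Cyp51 by −0.86 and Insig1, the sterol sensor of the pathway, by −0.73. The exception, Hsd17b7 (0.24), lost its call without vehicle replicate 2 (adjusted p = 0.0878) or TAE226 replicate 3 (0.0802) and when probe sets were averaged. Of 21 genes of fatty acid synthesis 13 were lower and none was higher (median −0.29). The acetate-activating enzyme Acss2 changed by −0.998, the acyl-CoA ligase Acsl3 by −0.88, and the desaturase Scd1 read 14.47, 14.32 and 14.61 in vehicle and 13.68, 13.69 and 13.80 in TAE226 (change −0.74, SE 0.08, adjusted p = 2.10e-06). The groups of Scd1 did not overlap, and its other bright probe set changed by −1.80. The sterol response letters TCACNCCAC were in 1 of the 13 lower cholesterol genes and none of the 10 lower fatty acid genes with a promoter, against 1% of the promoters of genes tested and 1.22% of all promoters.

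Interferon response genes were lower, but by less than under the other inhibitors. Medians of other lists also differed between inhibitors, such as G2/M and mitosis genes at −0.49 under TAE226, −0.745 under DAPT, −0.02 under U0126 and −1.48 under PP2. Interferons are secreted signals that switch on antiviral genes, and of 31 tested members 29 were lower and 1 was higher, with a median of −1.39. The higher one, Ifi27 (0.28), overlapped between groups and lost its call without vehicle replicate 1 or 2 or TAE226 replicate 2 or 3 (adjusted p = 0.0581 to 0.115). Rsad2 (viperin), which stops viral RNA synthesis, read 12.59, 12.83 and 12.41 in vehicle and 9.80, 9.92 and 9.81 in TAE226 (change −2.77, SE 0.21, adjusted p = 3.06e-08). The antiviral GTPase gene Mx1 fell at least 4.17-fold (adjusted p = 6.24e-05). Mx2, its relative, changed by −2.78 with an uneven treated group (6.75, 7.49 and 3.82; adjusted p = 0.00896). The chemokine Cxcl10, dim in TAE226, fell at least 4.28-fold with an adjusted p of 0.0403, and its call was lost without any one of the 6 arrays (adjusted p = 0.0726 to 0.116). Of 12 genes of antigen processing for MHC class I 8 were lower and none was higher (median −0.69). Those that fell most were the interferon-inducible proteasome subunits Psmb9 (−2.04), Psmb8 (−1.99) and Psmb10 (−1.36) and the peptide transporter Tap1 (−1.13, not called with averaged probe sets), whereas the class I light chain B2m stood at −0.06 and was not called. Of 31 constitutive proteasome subunits 7 were higher and 1 was lower (median 0.02), or none and 12 with centring on all probe sets, and 4 were higher without vehicle replicate 1, vehicle replicate 2, TAE226 replicate 2 or TAE226 replicate 3.

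The same interferon genes were lower still under the other inhibitors, which are compared with the same vehicle arrays: the list's median was −3.21 under DAPT, −3.41 under U0126 and −3.19 under PP2, so that vehicle was the high group and TAE226 lay between it and the rest. Tested directly with limma, 27 of 31 members were higher in TAE226 than in DAPT (all genes: 11.2% higher, 11.4% lower), 26 were higher than in U0126 (19.5% higher, 17.7% lower) and 28 were higher than in PP2 (23.2% higher, 20.4% lower), and none was lower in any of these. Median differences were 1.64, 1.67 and 1.57. Rsad2 read 7.28, 7.40 and 7.17 in DAPT, 8.51, 9.34 and 9.40 in U0126 and 6.99, 7.24 and 6.44 in PP2, all below every TAE226 array. Ifit1, which binds foreign RNA, read 11.73, 11.98 and 11.52 in vehicle, 9.38, 9.56 and 8.97 in TAE226 and at most 7.82 in the others. In antigen processing, 8 of 12 genes were higher in TAE226 than in DAPT, 10 than in U0126 and 7 than in PP2. One macrophage marker, Cd14, fell as well (−0.67): it was the only one of 13 above the median on all 6 arrays, and with it the summed signal of the list was 7300 to 7763 in TAE226 and 11390 to 12520 in vehicle. The 3 other tested markers, Adgre1 (0.41), Csf1r (0.55) and Cd68 (−0.34), were not called, 9 of the 13 were dim on all 6 arrays, and the part of Cd14-expressing cells in the result was not tested. In RNA from whole cultures, fewer cells of a kind and less RNA per cell cannot be told apart.

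**Figure D3:**
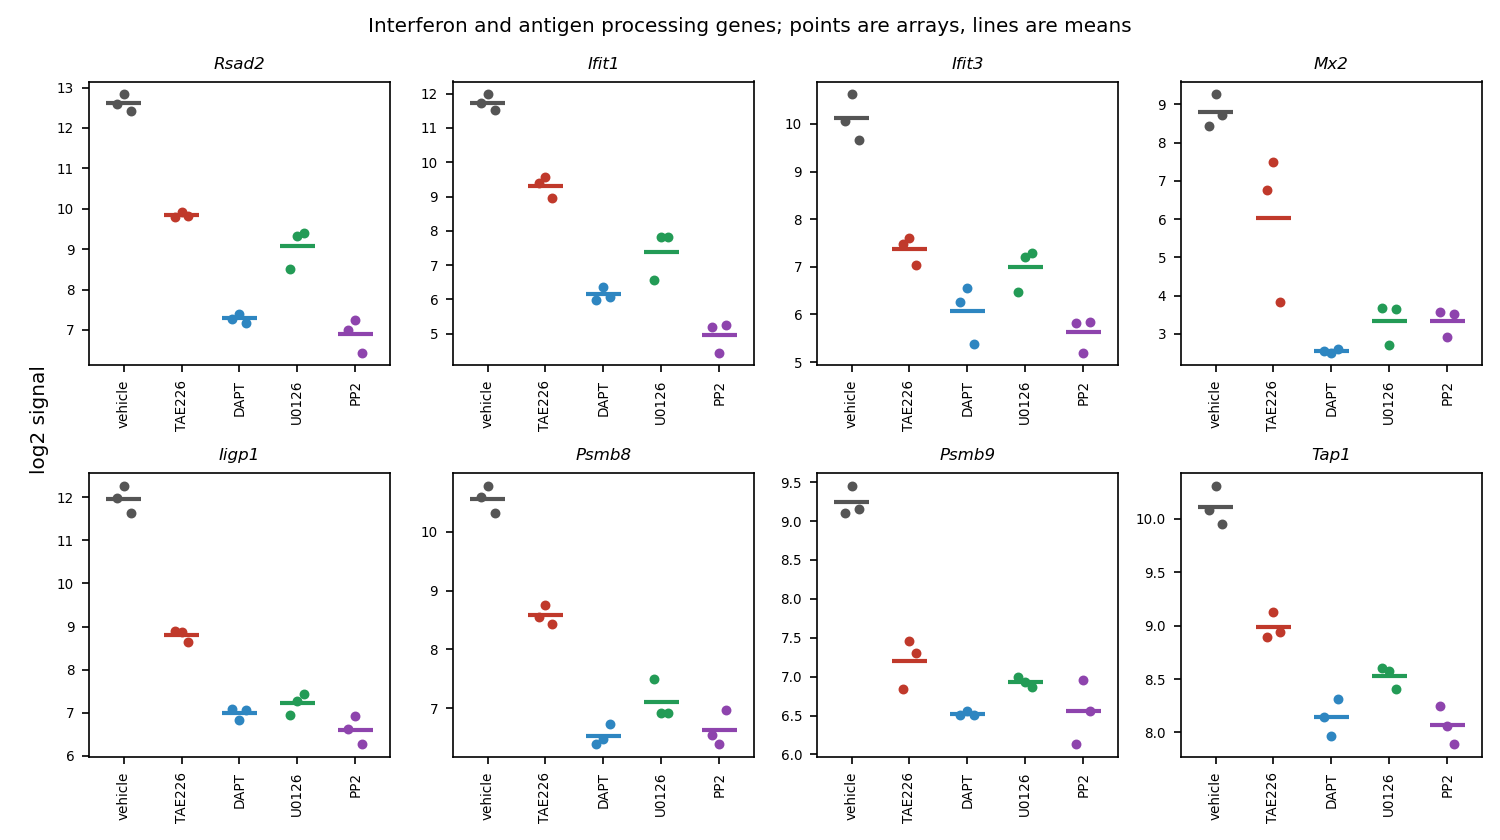
Log2 signal on each array of the 5 groups for 8 interferon and antigen processing genes; points are arrays, lines are group means and each panel has its own axis. TAE226 (red) lies below vehicle (grey) in every panel, and for Rsad2, Ifit1, Psmb8 and Tap1 every TAE226 array lies above every array of DAPT, U0126 and PP2.

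The core of the interferon response element, a pair of GAAA with 2 bases between them, was searched on both strands and was in 15 of the 21 lower interferon genes with a promoter and in 2 of the 7 lower antigen processing genes, in the 1 interferon gene and 1 of the 3 antigen processing genes that were not called, against 2.89% of the promoters of genes tested and 3.49% of all promoters. Rsad2 (chr12:26456538-26456597, minus strand), Ifit1 (chr19:34640760-34640838, plus) and Trim30a (chr7:104465195-104465254, minus), an antiviral ubiquitin ligase gene that changed by −2.07 (adjusted p = 0.0151, but 0.0684 without vehicle replicate 2 and 0.0547 without TAE226 replicate 3), are shown with the matches in capitals. They were chosen after their values were seen, and Ifit1 holds a pair of matches.
Rsad2: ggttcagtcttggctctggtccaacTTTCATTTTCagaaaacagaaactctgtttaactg
Ifit1: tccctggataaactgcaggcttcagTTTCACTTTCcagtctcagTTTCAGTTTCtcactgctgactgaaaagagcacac
Trim30a: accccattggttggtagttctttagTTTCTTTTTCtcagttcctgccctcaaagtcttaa

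**Figure D4:**
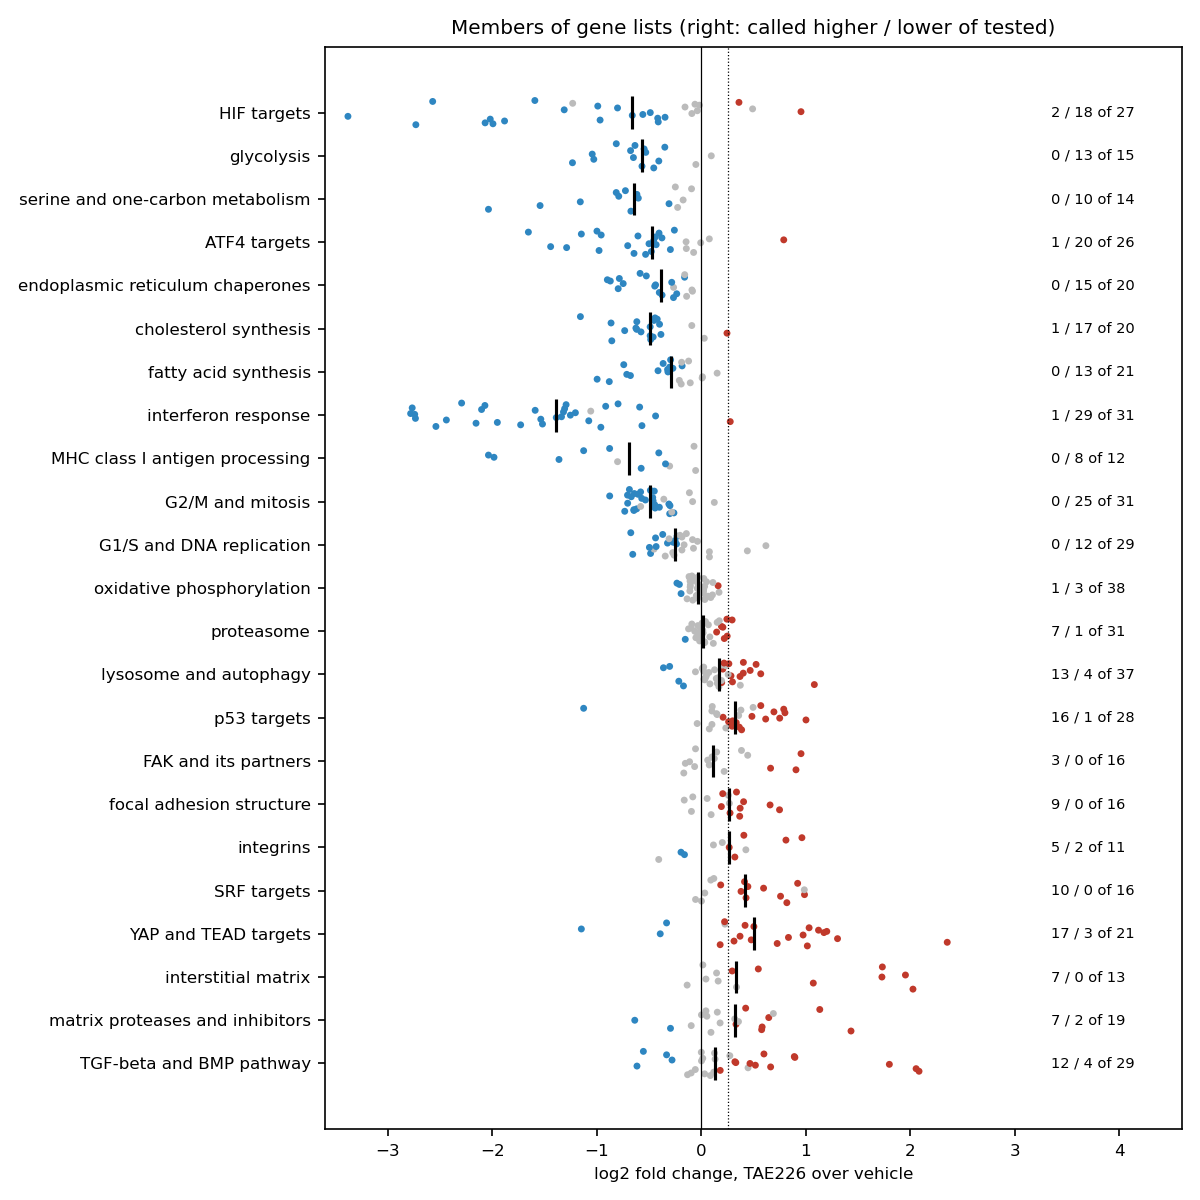
Log2 fold change of TAE226 over vehicle for each tested member of 23 gene lists; red points were called higher, blue lower and grey were not called, the black bar is the list's median, and the counts at the right are higher and lower of tested. The dotted line marks where 0 lies when arrays are centred on all probe sets: the HIF, glycolysis and interferon lists (medians −0.66, −0.57 and −1.39) lie mostly to its left, while the focal adhesion and p53 lists have medians (0.26 and 0.32) close to it.

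Genes around FAK itself changed little in number. Of 16 tested partners 3 were higher and none was lower (median 0.11), a share near the background. Bcar1, the scaffold p130Cas that FAK and Src phosphorylate, read 9.65, 9.66 and 9.47 in vehicle and 10.45, 10.21 and 10.11 in TAE226 (change 0.66, SE 0.09, adjusted p = 1.80e-05). Asap1, a GTPase-activating protein of focal adhesions, rose by 0.91, and Ptk2b (Pyk2), the closest relative of FAK, read 7.17, 7.08 and 6.47 in vehicle and 7.57, 7.97 and 8.04 in TAE226 (change 0.95, SE 0.21, adjusted p = 0.00225). All 3 stayed called when arrays were centred on all probe sets, where 3 other partners were lower, and Ptk2b was not called when its probe sets were averaged (adjusted p = 0.0704). Src (0.38, adjusted p = 0.0549) and the adaptor paxillin, Pxn (0.15), did not pass the test.

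The structural proteins of focal adhesions were higher more often, 9 of 16 with none lower (median 0.26), but this rests on the scaling: 2 were higher and 3 were lower with centring on all probe sets. The actin crosslinker Flna read 10.90, 10.89 and 10.79 in vehicle and 11.57, 11.59 and 11.66 in TAE226 (change 0.75, SE 0.07, adjusted p = 2.93e-07), and the adhesion protein Parva rose by 0.66 (0.07 for its other bright probe set). Both were called under either scaling, whereas talin, Tln1 (0.40), and the kinase Ilk (0.37) were called only without the centring. Of 11 integrins 5 were higher and 2 were lower, or 2 higher with centring on all probe sets, and the 2 lower ones, Itga6 (−0.16) and Itga8 (−0.20), were both not called without vehicle replicate 1, vehicle replicate 2 or TAE226 replicate 3. Itgb6, whose product activates latent TGF-beta, rose by 0.96 (SE 0.14, adjusted p = 4.13e-05) and Itgb5 by 0.81, while the main β subunit of adhesion, Itgb1, stood at 0.12 and was not called.

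Targets of the transcription factors that read tension and actin were higher. YAP binds TEAD proteins in cells under tension or at low density, and of 21 of its targets 17 were higher and 3 were lower (median 0.50). With centring on all probe sets 10 were higher and 3 lower. Ankrd1, a classical YAP target, read 6.34, 6.58 and 6.06 in vehicle and 8.61, 8.74 and 8.70 in TAE226 (change 2.35, SE 0.15, adjusted p = 6.57e-09), and the matricellular gene Ccn1 (Cyr61) read 9.95, 10.05 and 9.75 against 11.16, 11.29 and 11.21 (change 1.30, SE 0.08, adjusted p = 4.10e-09). Neither gene had a treated array within the range of its controls. The stress gene Gadd45b also rose (1.20), and the members that fell were the ectonucleotidase Nt5e (−1.15), tissue factor F3 (−0.39) and Tgfb2 (−0.33). Tgfb2 lost its call without vehicle replicate 3 (adjusted p = 0.0969), TAE226 replicate 2 (0.0893) or TAE226 replicate 3 (0.0684). Of 16 targets of SRF, the factor that reads free actin, 10 were higher and none was lower (median 0.42), with the tropomyosin Tpm1 at 0.92 and the calponin Cnn2 at 0.76. With centring on all probe sets 4 SRF targets were higher. The actins Actb (0.00) and Actg1 (−0.06) were not called.

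The TEAD letters GGAATG, on either strand, were in the promoters of 8 of the 11 higher YAP targets with a promoter and of none of the 3 lower ones, against 11.8% of the promoters of genes tested and 14.6% of all promoters. Ankrd1 (chr19:36119937-36120079, minus strand) has a pair of matches and Ccn1 (chr3:145650058-145650113, minus) has 1; both stretches are shown because these members rose most.
Ankrd1: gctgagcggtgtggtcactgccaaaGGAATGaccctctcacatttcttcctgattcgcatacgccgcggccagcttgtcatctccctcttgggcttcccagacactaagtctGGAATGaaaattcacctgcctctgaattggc
Ccn1: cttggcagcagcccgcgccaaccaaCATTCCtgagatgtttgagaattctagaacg

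Matrix genes and mesenchymal markers rose in part. Of 13 tested genes of the interstitial matrix 7 were higher and none was lower (median 0.34): the collagen Col12a1 changed by 2.02, the proteoglycan Ogn by 1.95, tenascin C (Tnc) by 1.73 and fibronectin (Fn1), the ligand of the integrins upstream of FAK, by 1.73. Col12a1 was not called when its probe sets were averaged (adjusted p = 0.0543). Fn1 read 9.14, 9.22 and 9.18 in vehicle and 10.70, 11.10 and 10.93 in TAE226 (SE 0.14, adjusted p = 7.12e-08). Of 16 mesenchymal markers on the array 10 were dim on all 6 arrays and only 5 were tested, of which 4 were higher. Cdh2 (N-cadherin) read 9.57, 9.51 and 9.44 in vehicle and 11.82, 11.66 and 11.63 in TAE226 (change 2.19, SE 0.11, adjusted p = 4.03e-10). With centring on all probe sets only Cdh2 and Fn1 of these were called. The summed signal of 9 fibroblast markers was low but higher in TAE226 (311 to 386) than in vehicle (200.4 to 298); 7 of the 9 were dim on all 6 arrays, the 1 that was tested, Col1a2 (0.34), was not called, and the part of fibroblasts in these rises was not tested. E-cadherin, Cdh1, stood at 0.22 and was not called. Of 26 junction genes 6 were higher and 4 were lower (median −0.00), or 1 and 12 with centring on all probe sets, with the claudin Cldn4 at 1.01 and the desmosomal cadherin Dsg2 at −0.45, a direction not shared by another bright probe set of Dsg2 (0.05). Among 19 proteases and inhibitors 7 were higher and 2 were lower (3 and 3 with the centring), led by the metalloprotease Adam12 (1.43), the inhibitor Timp2 (1.13) and the membrane protease Mmp14 (0.64).

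In the TGF-beta and BMP pathway 12 of 29 genes were higher and 4 were lower (median 0.13), or 7 and 7 with centring on all probe sets, and 2 were lower without TAE226 replicate 3. Id3, a direct BMP target that blocks basic helix-loop-helix factors, read 7.83, 7.86 and 8.09 in vehicle and 10.02, 9.89 and 10.03 in TAE226 (change 2.06, SE 0.10, adjusted p = 1.39e-10). The activin antagonist Fst rose by 2.08 and the latent TGF-beta binding protein Ltbp2 by 1.80. The inhibitory Smads that the pathway induces were also higher, Smad6 and Smad7 both at 0.89, whereas the related Id1 stood at 0.18 (−0.07 with centring on all probe sets) and Id2 at −0.06.

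Within the insulin-like growth factor axis, 4 of 16 genes were higher and 1 was lower, a count near the background that holds very large changes, and with centring on all probe sets 4 were higher and 6 were lower. Pappa, described above, cleaves the binding proteins, and Stc2, described among the HIF targets, makes a glycoprotein that inhibits it; the former rose by 3.23 and the latter fell by 2.57. Igfbp7, a secreted binding protein of low affinity, read 9.01, 8.87 and 9.34 in vehicle and 10.94, 10.98 and 11.13 in TAE226, a 3.85-fold rise (SE 0.11 on the log2 scale, adjusted p = 9.16e-10). Igf1r, the receptor that TAE226 also blocks, read 8.69, 8.62 and 8.55 in vehicle and 9.24, 9.08 and 9.34 in TAE226 (change 0.60, SE 0.10, adjusted p = 0.000334). The insulin receptor, Insr, overlapped between groups (−0.09, adjusted p = 0.446). Igfbp2 was called higher but was dim in both groups, so no fold is given. Of 21 receptor tyrosine kinases 6 were higher and none was lower, or 2 and 2 with centring on all probe sets; the highest, Fgfr2 (0.61) and Epha4 (0.60), were not called when probe sets were averaged. Of 16 targets of FOXO factors, which AKT holds inactive, 5 were higher and 3 were lower (1 and 5 with centring on all probe sets), led by the ubiquitin ligase Fbxo32 (0.83).

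Genes of cell division were lower. Of 31 G2/M and mitosis genes 25 were lower and none was higher (median −0.49). The proliferation marker Mki67 read 11.21, 11.14 and 11.36 in vehicle and 10.40, 10.32 and 10.34 in TAE226 (change −0.88, SE 0.12, adjusted p = 2.07e-05), and Birc5 (survivin) changed by −0.73. The count depended on the probe sets: 11 members were lower when all probe sets of a gene were averaged, and another bright probe set of Cenpf stood at 0.04 against −0.71 for the one used. Of 29 genes of G1/S and replication 12 were lower and none was higher (median −0.25), such as the licensing factor Cdc6 (−0.66). Without vehicle replicate 1, TAE226 replicate 2 or TAE226 replicate 3 that count was 7, with averaged probe sets it was 5, and with centring on all probe sets it was 25. ERK outputs were lower in 6 of 16 (10 with the centring), none was higher, and the ETS factor Etv5 changed by −0.87 and the ERK phosphatase Dusp6 by −0.39. In the Notch pathway 4 of 13 were higher and 5 were lower: the target Hey1 read 12.22, 12.05 and 12.33 in vehicle and 10.96, 10.90 and 10.94 in TAE226 (change −1.26, SE 0.06), and the ligand Jag1 changed by −1.18 (−0.42 and −1.34 for its other bright probe sets), while the receptor Notch1 stood at 0.47. None was higher with centring on all probe sets, and 2 were higher without vehicle replicate 3 or TAE226 replicate 2.

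Targets of p53 were higher in 16 of 28 and lower in 1 (median 0.32), and 7 were higher and 2 lower with centring on all probe sets. The death receptor Fas read 6.88, 7.12 and 7.01 in vehicle and 8.19, 7.95 and 7.88 in TAE226 (change 1.001, SE 0.14, adjusted p = 3.52e-05). The BH3 protein Pmaip1 (Noxa) rose by 0.80 and Mdm2, which degrades p53, by 0.75. The member that fell was Tap1, described above with antigen processing. The cell cycle inhibitor Cdkn1a (p21) was among the smaller changes, at 12.26, 12.32 and 12.28 in vehicle and 12.60, 12.55 and 12.63 in TAE226 (change 0.30, SE 0.06, adjusted p = 0.00142), and it was not called with centring on all probe sets (0.05, adjusted p = 0.739).

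The genes nearest to the study's title changed little or unevenly. Ptpn11, which encodes Shp2, read 11.84, 11.80 and 11.89 in vehicle and 11.84, 11.97 and 12.06 in TAE226 and was not called (0.12, adjusted p = 0.11). The mitotic kinase Aurka changed by −0.26 (adjusted p = 0.0356) and lost its call without vehicle replicate 2 (0.132), vehicle replicate 3 (0.0772), TAE226 replicate 2 (0.108) or TAE226 replicate 3 (0.0797). Skp2, the ubiquitin ligase subunit that targets p27, changed by −0.26, and its other bright probe sets stood at −0.29, −0.39, −0.40, 0.09 and 0.06. The Notch ligand Dll1 rose by 0.25 but stood at −0.00 with centring on all probe sets. Cdkn1b, the gene of p27, cannot be given a direction here, since the probe set used fell by 0.61 and its other bright probe set rose by 0.55. Of 16 secreted factors of senescent cells 2 were higher and 4 were lower (2 and 6 with the centring): Igfbp7 and the dim Igfbp2 rose, while Vegfa and the chemokines Cxcl2 (−1.73), Cxcl1 (−0.47) and Cxcl5 (−0.70) fell. Cxcl5 lost its call without any one of the 6 arrays (adjusted p = 0.0577 to 0.159).

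Markers of mammary lineages gave mixed calls that depended on the scaling. Of 12 basal and myoepithelial markers 4 were higher and 4 were lower (2 and 4 with centring on all probe sets), with the oxytocin receptor Oxtr at 1.71 (SE 0.07, adjusted p = 2.26e-11) and the keratin Krt15 at −1.69. Of 16 luminal markers 5 were higher and 6 were lower (none and 6 with the centring), with Ly6d at −1.19 and Krt19 at −0.83, and of 20 milk and alveolar genes 4 were lower and none was higher (11 lower with the centring), with the casein Csn1s1 at −1.19. In the stem and progenitor list 3 of 14 were higher and 3 were lower (1 and 5 with the centring), the latter becoming 1 without vehicle replicate 1, vehicle replicate 2, TAE226 replicate 2 or TAE226 replicate 3. The higher basal markers became 2 without TAE226 replicate 2, and the higher luminal ones 3 without vehicle replicate 2 or TAE226 replicate 3. Foxj1, the master factor of motile cilia, read 7.62, 7.59 and 7.50 in vehicle and 10.29, 10.63 and 10.57 in TAE226 (SE 0.12, adjusted p = 2.54e-11). Of 47 motile cilia genes on the array, 11 passed the filter on dim genes and 6 of these were higher, among them the structural genes Cfap126, at 7.26, 7.11 and 7.22 in vehicle and 8.03, 8.25 and 8.30 in TAE226 (adjusted p = 1.21e-05), and Ccdc39 (0.89). Of the 47, 33 were dim on all 6 arrays and 4 were above the median on all 6. The filter asked for only 3 of the 15 arrays, so a gene could pass through the group in which it was high. The 6 of 11 is thus no measure of the whole list. Some members were dim in vehicle: Enkur rose at least 2.20-fold (adjusted p = 0.039) and Rsph1 at least 1.43-fold (0.0241). The count of 6 became 4 with centring on all probe sets. It fell to 3 with quantile normalisation or without vehicle replicate 1 or TAE226 replicate 3, and to 2 without TAE226 replicate 1. Enkur lost its call without any one of the 6 arrays (adjusted p = 0.0547 to 0.101). Rsph1 lost it without vehicle replicate 1 (0.127), TAE226 replicate 1 (0.0596) or TAE226 replicate 3 (0.0700). Ccdc39 lost it without TAE226 replicate 1 (0.0584). Against the same vehicle, Foxj1 was at 1.39 under DAPT, 3.18 under U0126 and −0.23 under PP2, and TAE226 did not differ from U0126 by the direct test (−0.25, adjusted p = 0.0992).

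Several smaller pathways held single large changes. Among 5 tested targets of the aryl hydrocarbon receptor, which switches on detoxifying enzymes, the aldehyde dehydrogenase Aldh3a1 rose by 1.39 and the cytochrome Cyp1b1 by 1.45, while Nqo1 (−0.39) and Tiparp (−0.30) fell; Cyp1b1 and Tiparp were not called when probe sets were averaged. Of 15 NRF2 targets 7 were higher and 3 were lower (2 and 3 with centring on all probe sets), with the glutathione genes Gstm1 at 0.85 and Gclc at 0.63. In the WNT pathway 6 of 24 were higher and 3 were lower (3 and 6 with the centring): the ligand Wnt7b rose by 0.73, and the feedback inhibitor Axin2, with dim controls, was higher by at least 2.15-fold (adjusted p = 6.17e-05). Of 20 genes of keratinization and kallikreins 6 were higher and 4 were lower (2 and 5 with the centring), with the suprabasal protein Sbsn at 1.38 and the calmodulin-like Calml3 at −1.29. Among 23 chemokines and NF-kB outputs 5 were higher and 5 were lower (4 and 9 with the centring), with the macrophage growth factor Csf1 and Cxcl16 both at 0.91; 3 were lower without vehicle replicate 1 or TAE226 replicate 1.

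Counts for housekeeping lists depended on the scaling. Of 37 genes of lysosomes and autophagy 13 were higher and 4 were lower, but 2 and 5 with centring on all probe sets, and the autophagy kinase Ulk1 (0.52) was among those not called there. Of 25 MYC targets 2 were higher and 11 were lower, with the ribosome assembly factor Rrp9 at −1.20; none was higher and 17 were lower with centring on all probe sets, and 6 or 7 were lower without vehicle replicate 2, vehicle replicate 3 or TAE226 replicate 3. Of 32 ribosomal proteins 6 were lower and none was higher; 28 were lower with centring on all probe sets, and 3 without vehicle replicate 1, vehicle replicate 3 or TAE226 replicate 1. In the BCL2 family 4 of 16 were higher and 1, Bnip3, was lower (1 and 2 with the centring).

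To find where TAE226 stood apart, a gene had to differ in the same direction, with an adjusted p under 0.05 in limma, from vehicle and from each of DAPT, U0126 and PP2. This held for 117 higher genes (1.03% of those tested) and 108 lower genes (0.946%). Igfbp7 was among the highest: it read 8.95, 8.98 and 9.05 in DAPT, 9.98, 9.77 and 9.97 in U0126 and 7.41, 7.30 and 7.17 in PP2, all below the lowest TAE226 array. Crip1, a LIM protein, was 2.75-fold higher than in vehicle and differed by 2.79, 1.19 and 1.68 from DAPT, U0126 and PP2. Sbspon, the prolactin family gene Prl7b1 (dim in vehicle, at least 2.33-fold, adjusted p = 0.000995), the pump regulator Fxyd2 (1.56), S100a3 (1.22), Fam169a (1.80) and the chemokine Cxcl12 (1.73) completed the 8 rises with the greatest smallest difference. Cxcl12 was not called when its probe sets were averaged (0.50, adjusted p = 0.349). The neutrophil marker S100a8 also stood apart (0.91), while the other 5 neutrophil markers on the array were dim on all 6.

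Among the falls, Bnip3 read 10.58, 10.65 and 10.61 in DAPT, 10.93, 10.87 and 10.97 in U0126 and 9.94, 9.96 and 9.98 in PP2, against at most 9.31 in TAE226. Slc1a1, a glutamate carrier, was 2.06-fold lower than in vehicle, and Elovl6, which lengthens saturated fatty acids, was 1.64-fold lower. The niacin receptor Hcar2 and the selenium-binding protein Selenbp1 were dim in TAE226 and fell at least 2.45-fold (adjusted p = 1.07e-06) and 2.06-fold (9.45e-06). Smtnl2, the BCL2 family gene Bcl2l15 (dim in TAE226, no fold given) and the peptide receptor Vipr1 (−0.62) were the remaining ones of the 8. These 8 were taken from genes above the median on all vehicle arrays. Igsf1, which was not, had a greater smallest difference (1.44) than Smtnl2 (1.29). Bcl2l15 lost its call against vehicle without vehicle replicate 1 (adjusted p = 0.0557) or TAE226 replicate 3 (0.0605), and Vipr1 did so with averaged probe sets (0.553).

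Some lists held several of these genes. In fatty acid synthesis 6 of 21 stood apart as lower: Acss2, Scd1, Elovl6, Fasn (−0.32), Thrsp (−0.29) and Me1 (−0.18). Against vehicle, Me1 was not called without vehicle replicate 3 (adjusted p = 0.0693) or TAE226 replicate 1 (0.0685), nor Thrsp with averaged probe sets. Elovl6 read 10.13, 10.11 and 10.21 in TAE226 and at least 10.74 on every other array. In glycolysis 3 of 15 did so, Pgam1 (−0.53), Aldoa (−0.46) and Ldha (−0.41), and among HIF targets 2 of 27 did, Bnip3 and Ndrg1. Ndrg1 changed by −1.31 from vehicle and by −1.85 from PP2, whose mean lay 0.54 above that of vehicle. Egln3, the largest HIF change, was not among them, as its level in TAE226 did not differ from that in PP2 by the test (0.28, adjusted p = 0.0725). In the p53 list 6 of 28 stood apart as higher, Sesn2, the polymerase Polk (0.69), Gtse1 (0.62), Phlda3 (0.48), Eda2r (0.33) and Ei24 (0.26). Eda2r was not called against vehicle without TAE226 replicate 2 (adjusted p = 0.0504). No interferon gene and no gene of the FAK partner list stood apart in this sense.

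**Figure D5:**
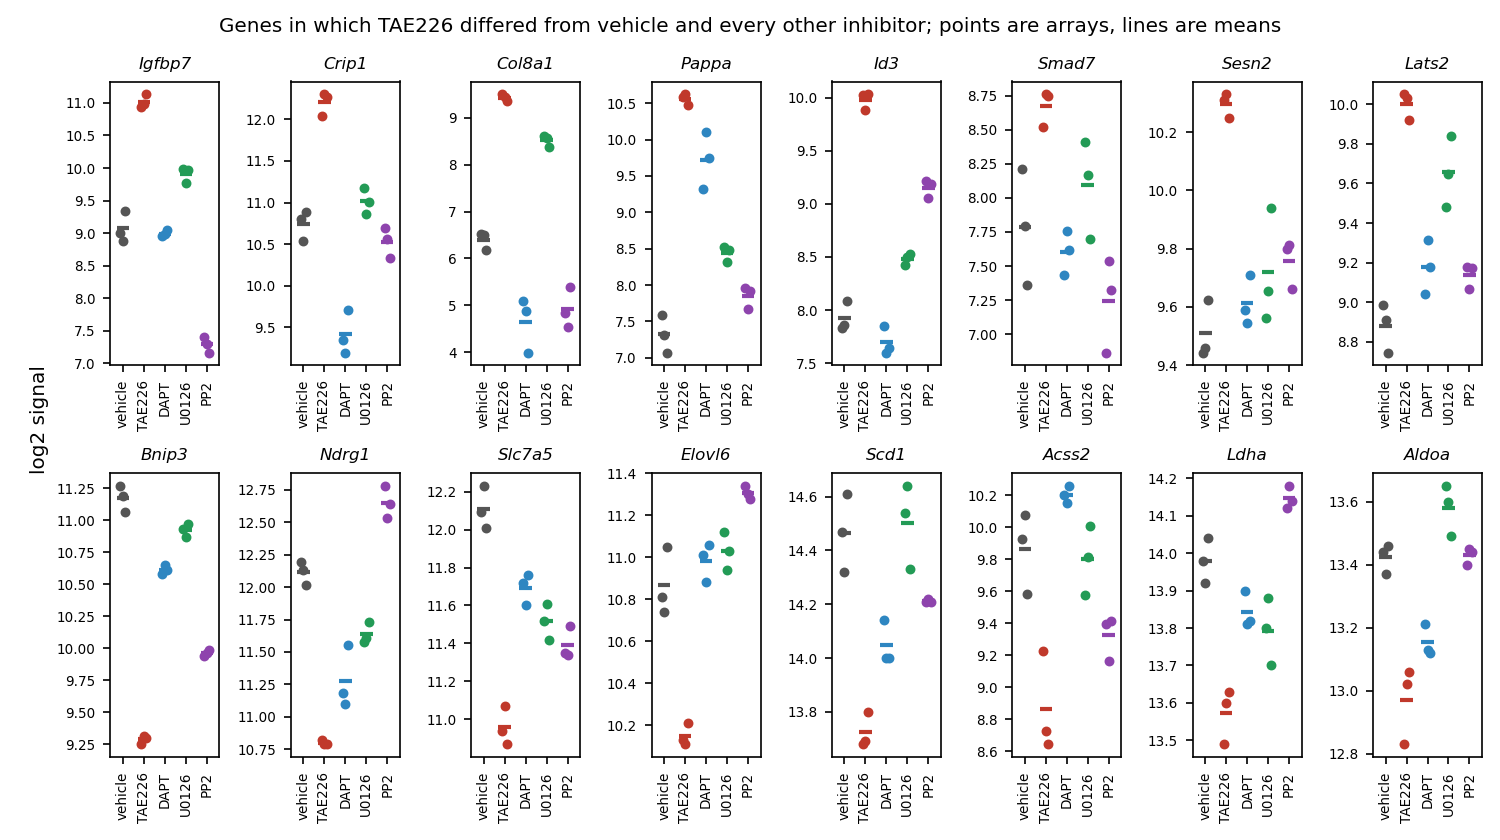
Log2 signal on each array of the 5 groups for 8 genes that were higher (top) and 8 that were lower (bottom) in TAE226 than in vehicle and each other inhibitor; points are arrays, lines are group means and each panel has its own axis. TAE226 (red) is the highest group in every upper panel and the lowest in every lower one, as for Bnip3, at 9.29 on average against 9.96 in PP2, the next lowest.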

How the data were processed

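Total RNA was hybridised to Affymetrix Mouse430_2 arrays, 1 per sample. The deposited values are linear signal intensities made by the authors with Expression Console and MAS5, per the submitters' processing notes, with versions not given in the sources used here; each array's mean after trimming 2% at each end was 500. MAS5 fixes that mean and not the distribution, so a shift of many genes can be spread over the others. Of 45101 probe sets, 34945 named 1 gene, 932 several and 9160 none listed; 34741 were matched to the RefSeq gene table by Entrez ID. The probe set with the highest mean over 15 arrays stood for a gene. A gene was tested if above the array median on at least 3 arrays. Log2 values of all 15 arrays were fitted with limma 3.58.1 (R 4.3.3), 1 coefficient per group, with an intensity trend; two-sided p-values were adjusted by Benjamini and Hochberg over all genes tested. The fit left 10 residual degrees of freedom, and the number of arrays limits the precision (median SE 0.0976). Where a group was dim on all its arrays, a fold is a lower bound, with each dim array at the higher of its median and its own value. Named genes were the 15 largest rises and falls, up to 4 called members of each list, 16 genes that stood apart and 11 genes fixed by name; a few others were picked after their values were seen. Comparison, lists and naming rule were all chosen with earlier results of these data known. Alternatives covered the scaling, pseudocount, filter, probe sets, variance model, samples fitted, replicate block and each array left out.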

Additional observations from a re-analysis of the deposited data

How the results depend on the processing

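Of 227 named genes that were called, direction and call were kept by most under each alternative. Calls were lost by 36 when arrays were centred on the median of all probe sets, by 49 when a gene's probe sets were averaged, by 9 with only the 6 arrays, by 8 each without the filter or without the intensity trend, by 7 with quantile normalisation, by 4 with the replicate block and by 1 each with centring on the genes tested or with the median signal added as pseudocount. Centring on all probe sets gave 428 genes higher and 4241 lower, and turned the sign of Dll1 (−0.0007402), Ndufb9 (−0.09416), Psma7 (−0.03532), Psmb3 (−0.007518), Psmd8 (−0.0102) and Sox9 (−0.009127); by construction it moved all values down. The pseudocount left 143 changes of 2-fold or more, since it shrinks low values. Averaging probe sets left 1172 genes lower, for which the cause was not tested. It also turned Dtx1 (0.0516), whose bright probe sets moved in opposite directions (−0.61 for the one used and 0.71 for the other). Without each array in turn, the genes called ranged from 2883 to 3174, the higher from 1356 to 1632, the lower from 1527 to 1580, changes of 2-fold or more from 297 to 358 and genes standing apart from 176 to 223, and 13 to 18 named genes lost their call. Whether replicate numbers pair the samples is not known. Deviations of same-numbered arrays correlated at −0.0004, −0.0528 and 0.112, and not every array correlated best with its own number. Deviations from a mean of 3 arrays are linked to each other, so these correlations cannot settle the question. A fit with the replicate block called 3409 genes (1673 higher, 1736 lower), 323 at 2-fold or more and 220 standing apart. Dim genes carry only bounds, and 3 arrays a group limit what small changes can be called.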
